A study of Mus musculus with 5 samples.

Results

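The Janus kinases Jak1, Jak2, Jak3 and Tyk2, the transcription factors Stat3, Stat5a and Stat5b, and the inhibitors Socs1, Socs2 and Socs3 were examined in hematopoietic stem cells (HSCs) of Atxn1L null and wild-type (WT) mice. These 10 genes were chosen by their place in cytokine signaling. Every probe set on the array that is annotated to exactly 1 of them was used, which gave 26 probe sets of the 45037 tested while 18193 genes in all had such a probe set. Transcripts were measured on 5 Affymetrix mouse arrays, 2 for Atxn1L null HSCs and 3 for WT HSCs. The null mice lacked Atxn1L, a paralog of the ataxia gene ataxin-1, and both genotypes were on the C57Bl/6 background, 6 to 8 weeks old by the labels and given no treatment. HSCs were sorted from the side population, cells that export a Hoechst dye, and were negative for lineage markers and positive for Sca-1, c-Kit and CD150. Cells were pooled for each chip and their RNA was amplified in 2 rounds of T7 transcription. Values are GCRMA values on the log2 scale, in which a step of 1 is a doubling, and differences are Atxn1L null minus WT.

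Cytokines such as erythropoietin, interleukin-6 and the interferons bind receptors that have no kinase of their own and rely on Janus kinases bound to their cytoplasmic tails. The activated kinases phosphorylate the receptor and the Stat proteins docked on it, and Stats then pair, enter the nucleus and bind a short palindrome in their target genes. Among the genes that Stats induce are the Socs genes and Cish, whose proteins bind the kinases or the receptors and shut the signal off. In HSCs, signals through Jak2 and Stat5 are needed to maintain the stem cell pool.

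The palindrome that Stat dimers bind is spelled TTCNNNGAA, where N is any base. It reads the same on both strands. The promoter windows of 3 classical Stat targets are shown, those of the member Socs3, its relative Cish and the transcription factor gene Irf1. Each is written 5' to 3' on the strand of the gene, in lower case with matches to the palindrome in capitals. Each runs from 250 bases before to 50 bases after an annotated start site in RefSeq, build GRCm38.p6. The Socs3 window is chr11:117969317-117969616 on the minus strand, the Cish window chr9:107296409-107296708 on the plus strand and the Irf1 window chr11:53769764-53770063 on the plus strand.
Socs3: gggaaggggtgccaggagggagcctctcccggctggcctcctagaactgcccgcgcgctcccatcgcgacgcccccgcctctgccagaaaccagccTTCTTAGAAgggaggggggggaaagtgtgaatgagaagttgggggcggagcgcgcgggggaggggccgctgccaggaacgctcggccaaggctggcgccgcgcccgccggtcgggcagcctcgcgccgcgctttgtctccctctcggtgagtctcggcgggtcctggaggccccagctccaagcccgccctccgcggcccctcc
Cish: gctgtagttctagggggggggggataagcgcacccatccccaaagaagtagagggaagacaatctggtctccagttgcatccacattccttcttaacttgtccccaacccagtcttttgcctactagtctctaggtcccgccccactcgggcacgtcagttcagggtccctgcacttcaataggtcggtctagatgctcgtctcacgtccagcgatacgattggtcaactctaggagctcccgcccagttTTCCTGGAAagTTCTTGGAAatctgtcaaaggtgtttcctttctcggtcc
Irf1: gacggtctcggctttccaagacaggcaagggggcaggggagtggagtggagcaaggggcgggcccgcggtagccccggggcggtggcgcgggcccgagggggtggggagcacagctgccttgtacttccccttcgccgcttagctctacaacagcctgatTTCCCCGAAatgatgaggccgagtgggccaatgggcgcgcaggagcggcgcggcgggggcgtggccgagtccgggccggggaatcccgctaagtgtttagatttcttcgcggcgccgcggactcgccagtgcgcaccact
The Socs3 match, TTCTTAGAA, starts at base 97 of the window. Cish has a pair of matches, TTCCTGGAA at base 251 and TTCTTGGAA at base 262, and Irf1 has TTCCCCGAA at base 161, while the window at another Irf1 start site holds none. Of the 32851 promoter windows in the table, 2726 (8.3%) held a match and 150 (0.457%) held 2 or more. RefSeq windows were at hand for 9 of the 10 member genes, all but Socs2. Of these 11 windows 1, that of Socs3, held a match. Among 93 windows of 69 of the other pathway genes listed below, 15 held a match. The same Gab1 match was counted in overlapping windows. Ptpn2, Pias2 and Pias4, described below, had no window. Of the targets of Stat3 and Stat5 listed below, Bcl6 and Icam1 also held a match. No match lay in the windows of Pim1, Pim2, Bcl2l1, Mcl1, Ccnd3, Bcl3, Junb, Fos and Cdkn1a. A match describes the letters and does not show that a Stat binds there.

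Of the 26 probe sets, 0 were called in either direction between Atxn1L null and WT HSCs. A probe set was called at an unadjusted limma p of at most 0.05 with a fold of at least 1.5, the criterion of the study's text. By this rule 2.38% of all probe sets were called, 1.13% higher and 1.25% lower in Atxn1L null HSCs, and a count of 0 among 26 lies near that background. By limma's unadjusted p alone 0 of the 26 lay at or below 0.05, against 5.59% of all probe sets, and every member had a Benjamini-Hochberg adjusted limma p of 1, where 1 probe set on the array (0.00222%) had one under 0.05. No member reached the 1.5-fold step, a log2 difference of 0.58. The differences ran from -0.57 for Socs3 to 0.43 for Socs2, with 10 positive and 16 negative. When the brightest probe set, by its mean over all arrays, stood for each gene, 0 of 10 genes were called, against 3.00% of all genes. The median difference of the 10 was -0.0071, against -0.0019 over all genes. That median lay between Jak3 and Socs1, whose means were below 5, and over the 7 genes that reached 5 it was 0.064. When any probe set of a gene sufficed, 0 of 10 were called, against 4.48% of all genes. Of the 11 probe sets whose mean reached 5 in either genotype, 0 were called, against 7.44% of all probe sets that bright.

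**Figure D1:**
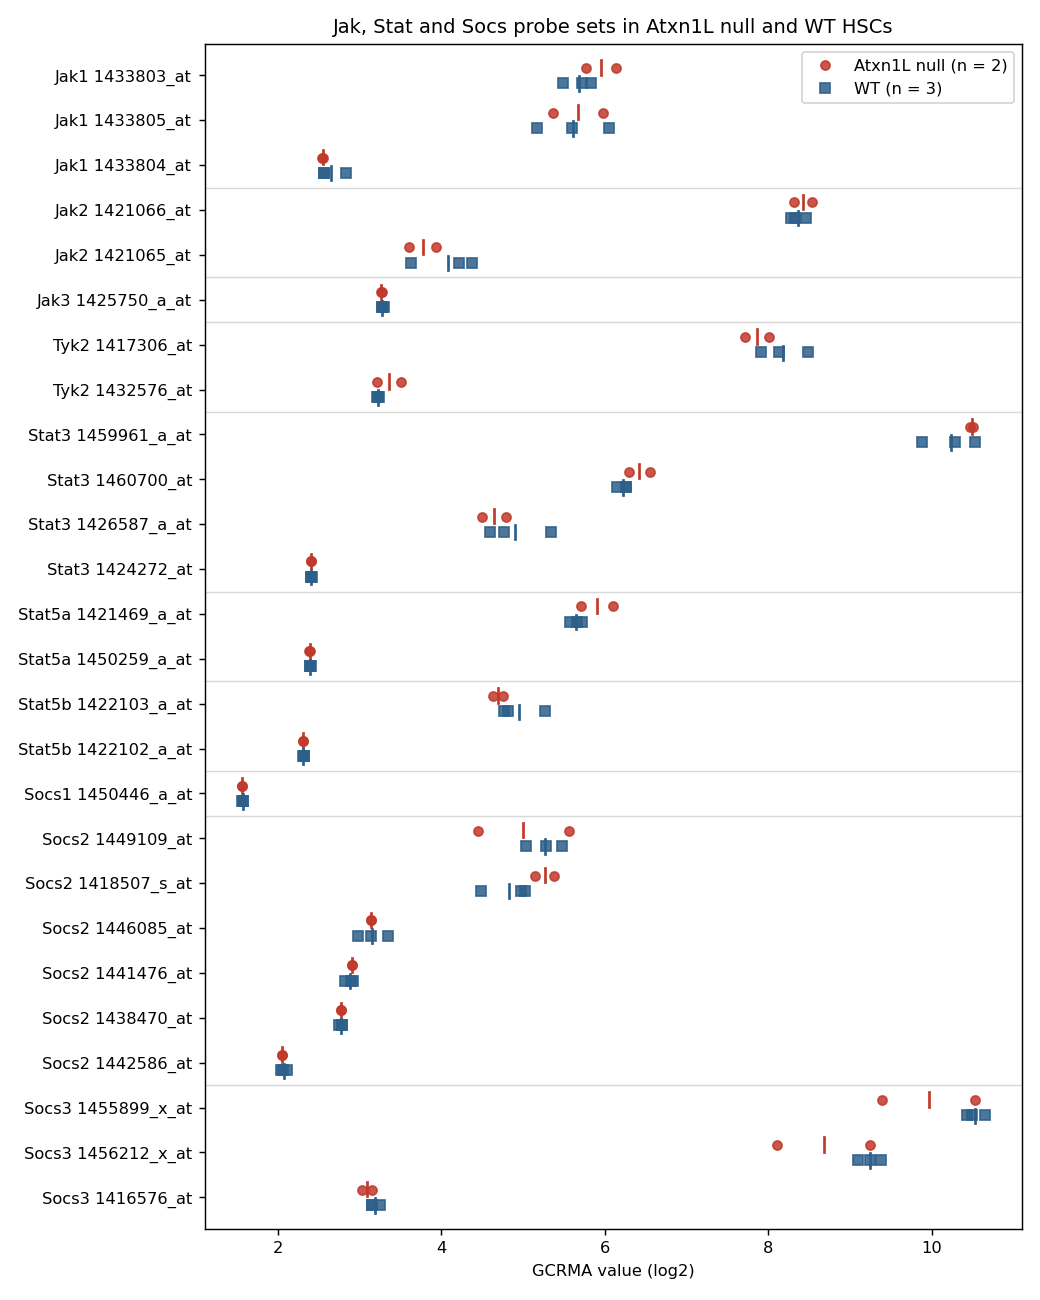
GCRMA values on the log2 scale (horizontal axis) of the 26 Jak, Stat and Socs probe sets (vertical axis), with red circles for the Atxn1L null arrays (n = 2), blue squares for the WT arrays (n = 3) and a tick at each mean. Both upper Socs3 probe sets show 1 null array far to the left, at 9.39 and 8.10, while the other null array, at 10.53 and 9.25, lies among the WT arrays.

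Some features of the arrays bear on all of these values. The targeted gene was low in the null arrays, where the 2 probe sets of Atxn1l that gave a clear signal read 3.08 and 3.99, and 3.23 and 3.65, against 4.98 to 6.80 and 5.74 to 6.52 in WT arrays. The excess of 3' over 5' signal of the Gapdh control, a measure of RNA integrity and of how far amplification ran, was 7.33 and 7.21 in null arrays, against 5.89 to 6.02 in WT arrays, with no overlap. Its part in the differences was not tested. Of 46 measured markers of other blood and stromal cell types, 0 were called and 17 reached a mean of 5. The 9 granulocyte and monocyte markers among them, 8 of which reached it, summed on the linear scale to 51680 and 30291 in the first and second null arrays, against 28516 to 51231 in WT arrays, so that the genotypes overlapped and the null arrays lay far apart. Of 10 measured markers of long-term HSCs 0 were called and 9 reached a mean of 5, the exception being Slamf1, the gene of CD150, at 3.89 in null and 3.92 in WT HSCs. The summed linear level of these 10 markers was 15970 and 17266 in null arrays, against 18284 to 20386 in WT arrays, with no overlap. Such a sum is led by its brightest gene, Procr, at 13.39 in null and 13.57 in WT HSCs. Gene by gene, 2 of the 10 did not overlap, Meis1 and Gata2, against 17.5% of all genes. Abcg2, Tek and Fgd5 were higher in null HSCs and the others lower. The part of these markers in the differences was not tested. In pooled cells, fewer cells with a transcript and less transcript per cell cannot be told apart. With 2 null arrays and 3 WT arrays no exact two-sided test can go below p = 0.1.

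Among the Janus kinases, Jak1, which serves interferon and gp130 receptors, had 2 probe sets with a clear signal, of which neither was called. Its probe set 1433803_at read 6.14 and 5.77 in null HSCs, against 5.84, 5.72 and 5.49 in WT HSCs, a difference of 0.27 (standard error 0.17, 95% interval -0.20 to 0.75). The second null array lay between the WT arrays, so the genotypes overlapped. Its probe set 1433805_at read 5.98 and 5.37 in null HSCs, against 5.60, 6.06 and 5.17 in WT HSCs, a difference of 0.06 with a 95% interval of -0.96 to 1.08. The null values lay within the WT values of that probe set, which spanned 0.89. The last Jak1 probe set, 1433804_at, was dim, at 2.55 and 2.55 in null HSCs and 2.56 to 2.83 in WT HSCs.

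Jak2, the kinase of the erythropoietin receptor, had the smallest standard error of the 11 brighter probe sets, 0.09. Its probe set 1421066_at read 8.32 and 8.53 in null HSCs, against 8.46, 8.33 and 8.28 in WT HSCs. The difference of 0.06 had a 95% interval of -0.20 to 0.33, which lies inside a 1.5-fold change in both directions. Its dimmer probe set 1421065_at read 3.94 and 3.61 in null HSCs and 4.38, 4.22 and 3.63 in WT HSCs, a difference of -0.30 with a wide interval of -1.11 to 0.50. Without the second null array the difference of 1421066_at was -0.04, so that its sign rests on single arrays.

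Tyk2, the partner of Jak1 at the type I interferon receptor, read 7.72 and 8.01 in null HSCs, against 8.13, 7.92 and 8.48 in WT HSCs on probe set 1417306_at. The difference of -0.31 (standard error 0.21, 95% interval -0.92 to 0.30) did not exceed the spread of the WT arrays, which was 0.56. Its other probe set, 1432576_at, was dim and read 3.22 and 3.51 in null HSCs and 3.21 to 3.24 in WT HSCs. Jak3, which pairs with the common gamma chain of lymphoid cytokine receptors, has 1 probe set of its own, 1425750_a_at, with 3.27 and 3.27 in null HSCs against 3.27 to 3.30 in WT HSCs. A further probe set, 1423021_s_at, is annotated to Jak3 and Insl3 together and is no member. It read 6.39 and 6.89 in null HSCs, against 7.37, 6.97 and 6.47 in WT HSCs.

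Stat3, the main transducer of gp130 cytokines, had its probe sets split in direction. On 1459961_a_at, null HSCs read 10.51 and 10.46, against 9.87, 10.53 and 10.28 in WT HSCs, a difference of 0.26 (95% interval -0.37 to 0.89). The first WT array stood low, and without it the difference was 0.08. On 1460700_at, null HSCs read 6.56 and 6.29, against 6.15, 6.26 and 6.26 in WT HSCs. Both null arrays lay above all WT arrays, but the difference was 0.20 (95% interval -0.08 to 0.47), below the required fold and with its interval inside a 1.5-fold change. On the dimmer 1426587_a_at the difference had the opposite sign, -0.26, with 4.50 and 4.79 in null HSCs and 4.60, 4.76 and 5.35 in WT HSCs. The genotypes overlapped, and without the third WT array the difference was -0.037. The last Stat3 probe set, 1424272_at, lay below the median of the arrays, at 2.41 in both genotypes.

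Stat5a and Stat5b, the near-identical Stats downstream of Jak2, differed in opposite directions, and neither was called. Stat5a read 6.10 and 5.71 in null HSCs, against 5.66, 5.72 and 5.58 in WT HSCs on 1421469_a_at, a difference of 0.25 (95% interval -0.15 to 0.65). The first null array stood above the rest and the second lay among the WT arrays. Stat5b read 4.75 and 4.63 in null HSCs, against 5.27, 4.77 and 4.82 in WT HSCs on 1422103_a_at, a difference of -0.26 (95% interval -0.80 to 0.27). Its genotypes did not overlap, but the highest null array and the lowest WT array were 4.75 and 4.77. The other probe sets of the pair, 1450259_a_at for Stat5a and 1422102_a_at for Stat5b, lay near 2.4 and 2.3 in all arrays.

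Socs3, the inhibitor that binds gp130 and Janus kinases, showed the largest difference of the family, and it rested on 1 array. On 1455899_x_at, null HSCs read 9.39 and 10.53, against 10.65, 10.43 and 10.49 in WT HSCs. On 1456212_x_at, null HSCs read 8.10 and 9.25, against 9.38, 9.10 and 9.24 in WT HSCs. On both, the first null array stood low and the second lay within the WT range. The differences were -0.56 (95% interval -1.66 to 0.53) and -0.57 (95% interval -1.68 to 0.54), just short of 1.5-fold.

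The distance between the null arrays was 1.13 and 1.14 on these probe sets, where the WT arrays spanned 0.23 and 0.28. Of the 12936 probe sets whose mean reached 5 in either genotype, 3.08% and 2.98% had a distance between the null arrays at least as large. Without the first null array the Socs3 differences were 0.0031 and 0.0047. Without the second null array they were -1.13 and -1.14 and both were called (limma adjusted p = 0.11 and 0.138), where 4.33% of all probe sets were called. Such a fit takes the lone null array to vary as the WT arrays do. The first null array also had the highest summed granulocyte and monocyte markers, 51680. The WT array with the highest sum, 51231, had Socs3 values of 10.49 and 9.24. The part of these markers' cells in the Socs3 values was not tested. The IDs of both Socs3 probe sets end in _x_at, the mark of probe sets that may read other transcripts too. The remaining Socs3 probe set, 1416576_at, was dim, at 3.15 and 3.03 in null HSCs against 3.16 to 3.25 in WT HSCs.

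**Figure D2:**
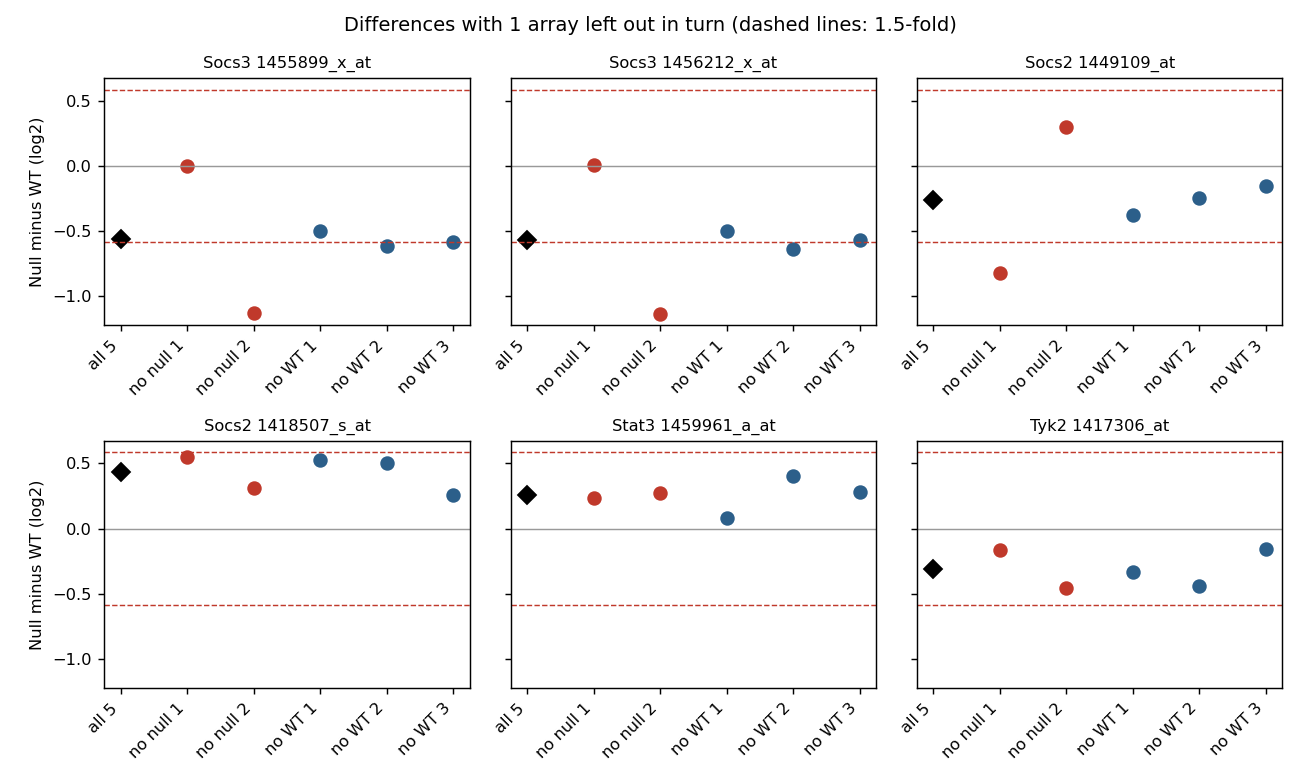
Differences, Atxn1L null minus WT on the log2 scale (vertical axis), of 6 member probe sets with all 5 arrays (black diamonds) and with 1 null array (red) or 1 WT array (blue) left out (horizontal axis), with dashed lines at 1.5-fold. The Socs3 differences run from 0.0031 or 0.0047 to -1.13 or -1.14 with the null array that is left out, whereas those of Stat3 and Tyk2 stay within 1.5-fold.

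Socs2, a Stat5 target that restrains growth hormone signaling, has 6 probe sets, and the pair with a clear signal disagreed. On 1449109_at, null HSCs read 5.57 and 4.44, against 5.04, 5.29 and 5.47 in WT HSCs, so that the null arrays lay on either side of the WT arrays. The difference was -0.26 (95% interval -1.40 to 0.88). On 1418507_s_at, null HSCs read 5.15 and 5.38, against 5.03, 4.98 and 4.49 in WT HSCs, with both null arrays above all WT arrays. Its difference of 0.43, a 1.35-fold step (standard error 0.21, 95% interval -0.18 to 1.04), was the largest positive one of the family and was not called. The second null array was the lowest array on 1449109_at and the highest on 1418507_s_at, so these readings of 1 gene do not rank the arrays alike. An ID ending in _s_at marks probes that several transcripts share. Without the first null array 1449109_at was called lower, at -0.82 (limma adjusted p = 0.478), where 2.69% of all probe sets were called. Without the second null array it was 0.30. The remaining 4 Socs2 probe sets were dim, at 2.04 to 3.35 over all arrays, and differed by -0.02 to 0.03.

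Socs1, the inhibitor of interferon signaling that blocks Jak kinase activity directly, was near the floor of the scale. Its single probe set, 1450446_a_at, read 1.57 and 1.57 in null HSCs against 1.56 to 1.58 in WT HSCs. A difference in Socs1 was thus not detectable on these arrays, which is no measure of its absence.

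**Figure D3:**
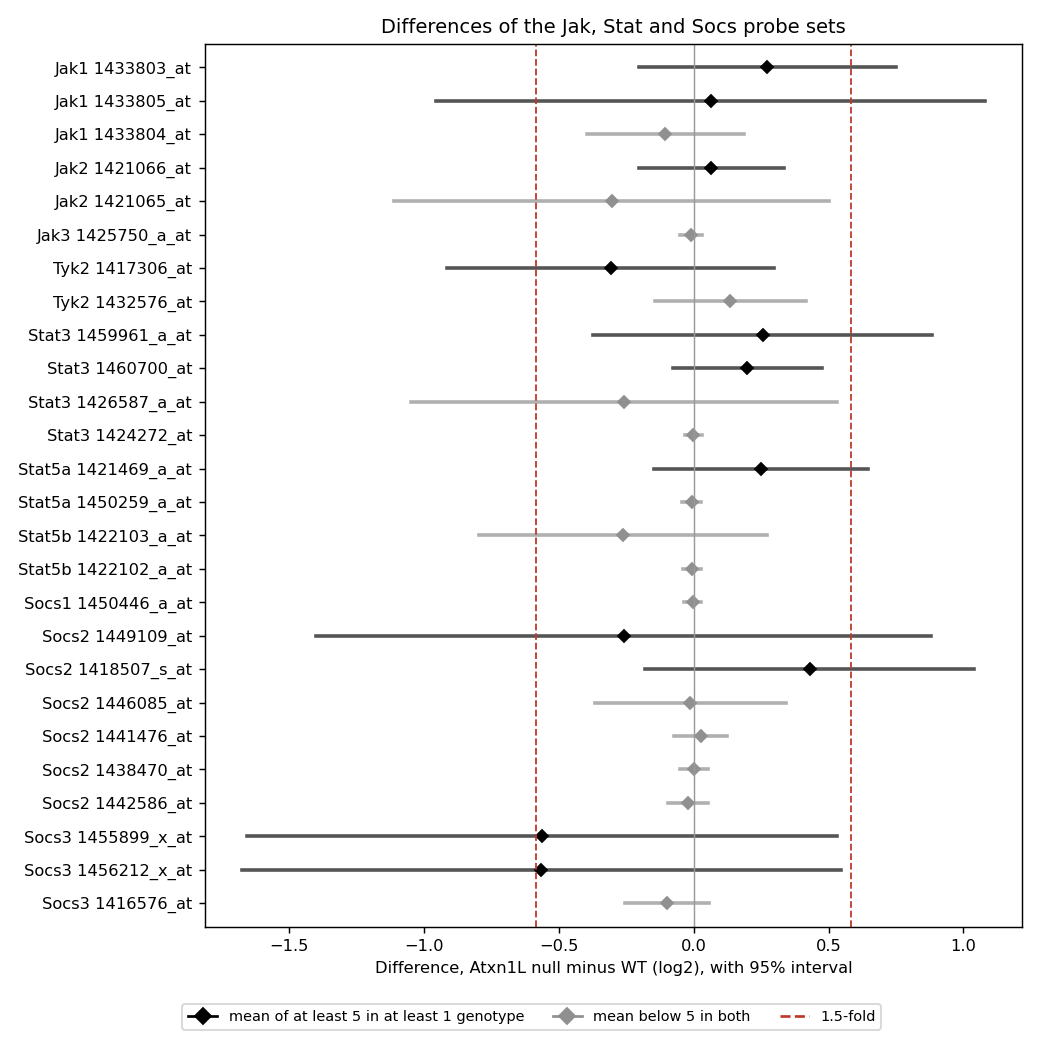
Differences, Atxn1L null minus WT on the log2 scale (horizontal axis), of the 26 probe sets (vertical axis) with 95% limma intervals, in black where the mean reached 5 in either genotype and in gray below that, with dashed lines at 1.5-fold. All 26 intervals cross 0, and 14 of them lie within the dashed lines, most of these being dim probe sets.

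How much the arrays could have shown differed between members. The 95% interval lay inside a 1.5-fold change in both directions for 14 of the 26 probe sets, but 12 of these were dim, with means below 5. Among the 11 brighter ones the interval did so for 2, one of Jak2 and one of Stat3, against 29.6% of all 12936 such probe sets. For the rest, Jak1, Tyk2, Stat5a, Socs2 and Socs3 included, a 1.5-fold difference in at least 1 direction was within the interval. The median absolute difference of these 11 was 0.26, against 0.25 over all such probe sets.

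The null values lay wholly above or below the WT values for 5 of the 26 probe sets, 2 higher and 3 lower in Atxn1L null HSCs. Over all probe sets this held for 14.2%, with 6.75% higher and 7.50% lower, and for 33.0% of the brighter ones, where the family had 2 of 11. By the brightest probe set it held for 1 of the 10 genes, Stat5b, against 17.5% of all genes. The 2 higher ones were the Stat3 and Socs2 probe sets above, and the lower ones were Stat5b 1422103_a_at, Jak1 1433804_at and Socs3 1416576_at. The distance between the null arrays exceeded the span of the WT arrays for 7 of the 11, against 39.5% of all such probe sets. These were the upper probe sets of Socs3 and 1 each of Socs2, Stat5a, Stat3, Jak1 and Jak2.

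Around the 10 genes, 94 others of the pathway were listed by role, and 87 had a probe set of their own. Read again by the brightest probe set, 2 were called higher and 3 lower in Atxn1L null HSCs (1.57% and 1.43% of all genes). After adjustment over all probe sets 0 of the 87 were left at an adjusted p under 0.05, the lowest among the 5 called genes being 0.489. Their median difference was -0.0061. The other 7 were not analysed here.

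Among the 12 measured restraints of the pathway, 2 were called higher and 1 lower by the brightest probe set, where 1.57% and 1.43% of all genes were. Ptpn2, the phosphatase that removes phosphate from Jak1, Jak3 and nuclear Stats, read 9.49 and 9.43 in null HSCs, against 9.05, 8.89 and 8.63 in WT HSCs. It rose by 0.60, a 1.52-fold change (standard error 0.15, limma adjusted p = 0.646). A second probe set of Ptpn2, 1417140_a_at, read 8.39 and 8.25 in null HSCs, against 7.85, 7.76 and 7.67 in WT HSCs, a difference of 0.56 that fell short of the fold. On both, the null arrays lay above all WT arrays. The dimmer Ptpn2 probe sets 1425198_at and 1425197_at differed by 0.28 and 0.037, with overlap between the genotypes and without being called.

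Pias2 and Pias4, members of a family that binds Stats and attaches SUMO, moved in opposite directions. Pias2 read 5.94 and 5.73 in null HSCs, against 5.11, 5.35 and 5.21 in WT HSCs, and rose by 0.61 (standard error 0.11, limma adjusted p = 0.489). Its other probe sets differed by 0.35 and 0.06 without being called. Pias4 read 8.16 and 9.0 in null HSCs, against 10.33, 9.65 and 10.08 in WT HSCs, and fell by 1.44, a 2.71-fold change (standard error 0.36, limma adjusted p = 0.654). Its other probe sets were dim, near 3.0 and 2.4, and differed by less than 0.01. Ptprc, the CD45 phosphatase, named after its values were seen, had a dimmer probe set that was called lower, 1440165_at, with 5.66 and 5.53 in null HSCs, against 7.26, 6.76 and 6.23 in WT HSCs, a difference of -1.16 (limma adjusted p = 0.777). Its brightest probe set differed by 0.23, in the opposite direction, and was not called.

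Irf1, an interferon-induced transcription factor whose promoter window is shown above, was the 1 called gene among 16 targets of Stat3 and Stat5. It read 7.18 and 7.61 in null HSCs, against 8.49, 8.12 and 8.76 in WT HSCs, and fell by 1.07, a 2.10-fold change (standard error 0.26, limma adjusted p = 0.641). Both null arrays lay below all WT arrays. Cish, the inhibitor with a pair of Stat palindromes, read 12.21 and 11.93 in null HSCs and 11.97, 12.20 and 11.98 in WT HSCs. Its difference of 0.02 had a 95% interval of -0.34 to 0.38, inside a 1.5-fold change. Pim1, a kinase gene that Stat5 induces, named after its values were seen, read 9.87 and 9.99 in null HSCs, against 10.05, 10.26 and 10.64 in WT HSCs, with no overlap and without being called.

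Among 15 measured ligands, Ctf1, which encodes the gp130 cytokine cardiotrophin-1, read 4.79 and 5.10 in null HSCs, against 5.76, 5.84 and 5.43 in WT HSCs. It fell by 0.73, a 1.66-fold change (standard error 0.18, limma adjusted p = 0.648). None of the 5 calls held without the first null array, where the differences were 0.57 for Ptpn2, 0.50 for Pias2, -1.02 for Pias4, -0.58 for Ctf1 and -0.85 for Irf1. Without the first WT array 4 of the 5 were not called, with 0.55 for Pias2, -1.29 for Pias4, -0.69 for Ctf1 and -1.05 for Irf1. Ptpn2 also lost its call without the second null array (0.63) or the third WT array (0.49), and Pias4 without the third WT array (-1.41). The Gapdh control values given above moved with genotype in the same arrays as these 5 calls, and their part was not tested.

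None of the 26 measured receptor subunits was called. Il6st, which encodes gp130, read 9.49 and 9.19 in null HSCs and 9.19, 9.62 and 9.44 in WT HSCs, and Ifnar2, of the type I interferon receptor, averaged 9.53 in null and 9.54 in WT HSCs. Ifngr2, of the interferon gamma receptor, named after its values were seen, read 3.92 and 2.65 in null HSCs, against 5.99, 4.92 and 4.44 in WT HSCs. Its difference of -1.83 had an interval of -3.75 to 0.09 and was not called (limma adjusted p = 0.934).

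None of the 3 other measured Stats, the 5 other Socs family genes or the 10 adaptors was called. Stat6, the Stat of interleukin-4, read 8.92 and 8.99 in null HSCs, against 8.25, 8.73 and 8.83 in WT HSCs, and Stat4, of interleukin-12, 6.39 and 6.08 in null HSCs against 5.61, 6.04 and 6.00 in WT HSCs. For both, the null arrays lay above all WT arrays by less than the required fold, with differences of 0.36 and 0.35. Socs7 averaged 11.24 in null and 11.55 in WT HSCs, and the adaptors Gab2 and Grb2 differed by 0.21 and -0.64 without being called.

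**Figure D4:**
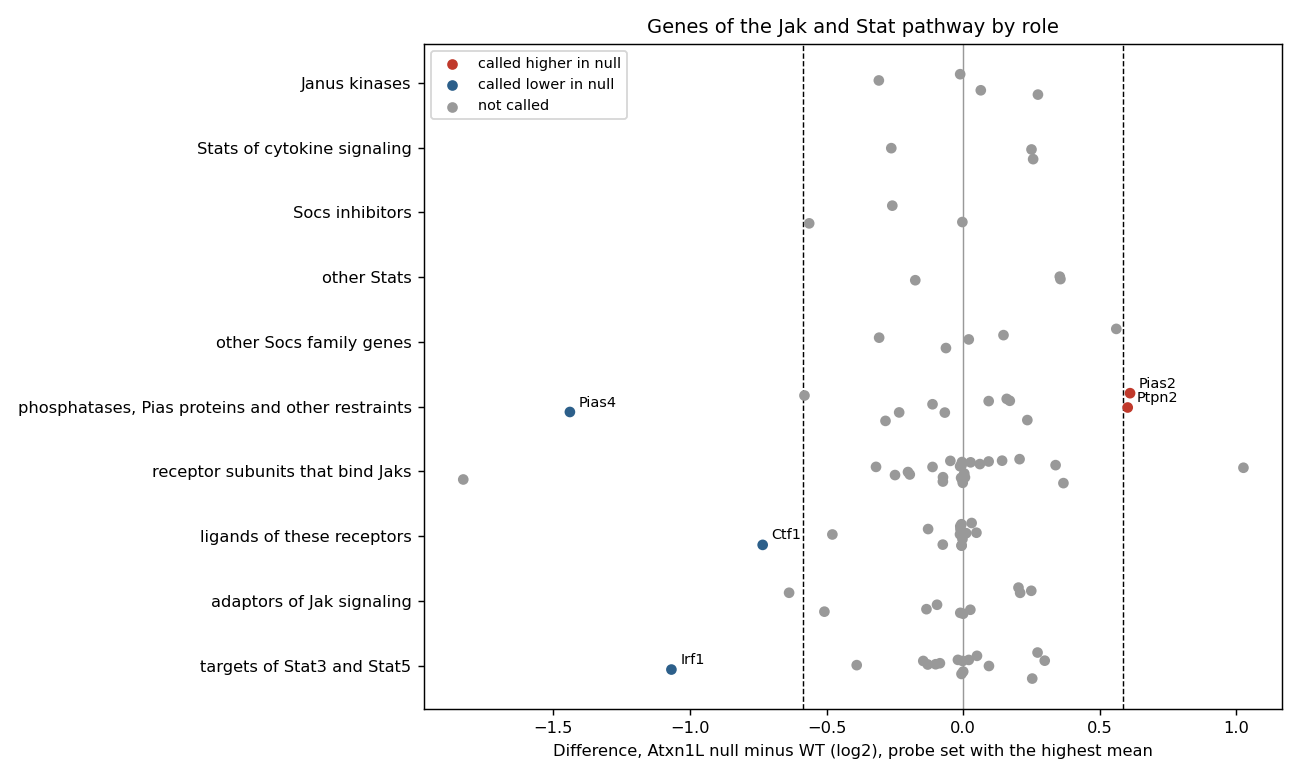
Differences, Atxn1L null minus WT on the log2 scale (horizontal axis), of the 10 members and 87 other genes of the pathway, grouped by role (vertical axis), each read by its brightest probe set, with dashed lines at 1.5-fold. Red and blue points mark the 2 genes called higher and the 3 called lower, and the points of the 10 members all lie between the dashed lines.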

How the data were processed

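HSCs were measured on 5 MOE430.2 chips, 2 for Atxn1L null and 3 for WT mice, and each array was assigned to its genotype from the sample labels. The deposited values are log2 values that the authors made with GCRMA, a method that corrects background by probe sequence, normalizes quantiles and summarizes each probe set. The log base, taken as log2 from the range of the values, and the GCRMA version are not given in the sources used here. Array medians lay between 3.03 and 3.07, and with so few arrays their number limits the precision.

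Of 45101 probe sets, 64 Affymetrix controls were left out and no dim ones were removed. Genotype means were compared with the lmFit and eBayes steps of limma 3.58.1 under R 4.3.3, with 3 residual and 0.771 prior degrees of freedom, and tested on simulated data. P-values measure the spread between these pools and were adjusted by Benjamini-Hochberg over all 45037 probe sets. The platform's annotation as deposited in GEO gave 34945 probe sets 1 gene, and 932 with several genes and 9160 with none named no gene. Of the probe sets shared by a member and another gene, 2 were left out. Promoter windows came from RefSeq (GRCm38.p6).

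The members and the lists of other genes were chosen with earlier results of these data known. All 10 members were named, with up to 4 called genes of each other list in each direction or, where none was called, the 2 with the highest mean. The alternatives were array weights, a variance trend estimated robustly, median centring, new quantile normalization, a minimum mean of 5, omission of probe sets that may cross-hybridize, averages over a gene's probe sets, other criteria, a block for the replicate number, and omission of each array.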

Additional observations from a re-analysis of the deposited data

How the results depend on the processing

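None of the 26 member probe sets was called with a variance trend, array weights, renewed quantile normalization, median centring, the replicate number as a block, an adjusted p under 0.05 or a fold of at least 2. Nor were the 11 that a minimum mean of 5 kept, those left without _s_at and _x_at probe sets, or the averages of the 10 genes. With 1 array left out, the count of called member probe sets ran from 0 to 2 and that of member genes from 0 to 1, by the probe set with the highest mean or by any, all through Socs3 or Socs2 when a null array was left out. Of the other pathway genes, 2 were higher and 3 lower. The higher count was 1 with array weights and with the block. It was 0 with averaged probe sets, an adjusted p under 0.05 or a fold of at least 2. The lower count was 5 with a variance trend or a minimum mean of 5 and 0 with an adjusted p under 0.05. The share called over all probe sets moved too, from 2.38% to 2.97% with a variance trend and 3.56% with array weights. It was 9.55% with a minimum mean of 5, 1.69% with the block and 1.59% when averaged. An adjusted p under 0.05 gave 0.00222% and a fold of at least 2 gave 0.511%. With 1 WT array left out the higher count ran from 1 to 3 and the lower from 0 to 4. In these fits 1.57% to 2.56% of all probe sets were called. The 5 members without overlap (14.2% of all probe sets) stayed 5 after renewed quantile normalization (22.5%) and became 3 after median centring (17.6%). They were 4 without _s_at and _x_at probe sets (13.6%), 2 with a minimum mean of 5 (33.0%) and 1 when averaged (15.6%). With 1 array left out they were 7 to 14 (20.0% to 43.4%), where fewer arrays make overlap rarer. The median differences moved by less than the spread between arrays, that of the members from -0.0071 to 0.064 with a minimum mean of 5.

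Some signs of member probe sets turned, and the cause was not tested. No member was called with all 5 arrays, so these turns say nothing on how firm a call is. Jak1 1433805_at was -0.39 with array weights and -0.16 with the block, Stat3 1459961_a_at -0.046 with array weights, Stat3 1424272_at 0.0005965 after renewed quantile normalization and 0.0029 with the block, Socs1 1450446_a_at 0.0019 after renewed quantile normalization, and Socs2 1438470_at -0.012 with array weights and -1.26e-05 after median centring. The average over all probe sets of the gene was -0.12 for Jak2 and 0.027 for Socs2, opposite in sign to 1421066_at and 1449109_at, their brightest ones. With 1 array left out, Jak1 1433805_at ran from -0.24 to 0.37, Jak2 1421066_at from -0.041 to 0.17, Tyk2 1432576_at from -0.011 to 0.28, Stat3 1424272_at from -0.0044 to 0.0029, Socs2 1449109_at from -0.82 to 0.30, Socs2 1446085_at from -0.10 to 0.084, Socs2 1441476_at from -0.0031 to 0.044, Socs2 1438470_at from -0.012 to 0.0081, and Socs3 1455899_x_at and 1456212_x_at from -1.13 to 0.0031 and from -1.14 to 0.0047.

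The replicate numbers of the labels pair only arrays 1 and 2 of each genotype. The deviations of same-numbered arrays from their genotype's mean correlated at -0.033 and -0.257 across probe sets. With only 2 null arrays their deviations mirror each other, so arrays of unlike number gave 0.033 and 0.257. These values therefore cannot settle whether the numbers are pairs. The main fit did not take them as pairs. With the number as a block 290 probe sets were higher and 472 lower, against 510 and 564 without it.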
